A study of Homo sapiens with 4 samples.

Results

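The genes described here encode the proteins by which epithelial cells hold on to their basement membrane and to each other, together with mesenchymal genes that such cells usually keep low. They are 42 genes chosen by name for these roles, of 29286 genes listed by Ensembl identifier, and each of the 42 was matched to 1 identifier. They fall into 7 subgroups: laminins (5), integrins (9), hemidesmosome proteins with tetraspanins (5), desmosome proteins (6), adherens junction proteins with EPCAM (5), tight junction proteins (8) and mesenchymal genes (4). Their RNA was measured in HCT116, a cell line long established from a human colorectal carcinoma, in 2 libraries of cells carrying a short hairpin against WDR43 (shWDR43) and 2 libraries of cells carrying a control hairpin (shNC, written shNC2 in the sample titles). Both groups had been infected with lentivirus for 48 h and selected with puromycin for 3 days, and the comparison asks how RNA levels changed when WDR43, whose product acts in ribosome assembly in the nucleolus, was knocked down. The labels name neither the hairpin sequences nor whether a group's 2 libraries were grown as separate cultures. The p-values therefore rest on library-to-library spread that may be technical.

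Laminins are trimers of an alpha, a beta and a gamma chain that build the basement membrane, and laminin-332, which holds the LAMA3 and LAMB3 products, is the form on which epithelia anchor. Integrins are pairs of an alpha and a beta subunit that bind the matrix from the cell surface. The pair of ITGA6 and ITGB4 products binds laminin-332 and, through plectin, the keratin filaments, in a structure called the hemidesmosome. Between cells, desmosomes couple keratin filaments, adherens junctions couple actin through cadherins and catenins, and tight junctions seal the space with claudins. VIM, FN1, ZEB1 and SNAI2 are commonly used as marks of a mesenchymal state.

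The values were read as FPKM, fragment numbers corrected for gene length and for the size of the library, a unit inferred from the values, which summed to 411816 and 402393 in the shWDR43 libraries and to 393582 and 413758 in the shNC libraries. Read totals are not given, so the depth behind a value is unknown. The level of WDR43 itself, and so its depletion, was not analysed here. Summed over 8 epithelial markers, the level was 2636 and 2605 FPKM in shWDR43 and 1842 and 2176 FPKM in shNC. Most of this sum came from KRT8, KRT18 and KRT19, at 807, 514 and 991 FPKM in shWDR43 replicate 1. Of 7 tested markers 2 were higher in shWDR43, KRT8 and CLDN4, the latter one of the 42 genes. KRT18, KRT19 and ELF3 had log2 differences of 0.44, 0.36 and 0.15, and EPCAM and CDH1 of -0.07 and -0.11, and none of these passed. KRT20 was below 0.5 FPKM in each library. Of the markers of other cells, COL1A1 was at 5.69 to 7.80 FPKM, and the others that could be matched, 6 fibroblast, 6 endothelial and 5 leukocyte markers, were below 0.5 FPKM in each library. The share of the FPKM sum held by genes of mitochondrial DNA was 24.6% and 23.9% in shWDR43, against 26.8% and 25.5% in shNC. The epithelial marker sum and this share moved with the groups, and their part in the results was not tested. In such bulk samples, fewer cells of a type and less RNA per cell cannot be told apart.

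Of 8 genes of laminin-332 and the hemidesmosome (LAMA3, LAMB3, ITGA6, ITGB4, COL17A1, PLEC, DST and CD151), 6 rose in shWDR43 cells, ITGA6 and DST did not pass, and 0 fell. The 8 were gathered across subgroups with earlier results of these data known, so 6 of 8 is a selected count. The subgroups of these 8 genes gave 2 of 5 laminin, 1 of 8 integrin and 3 of 5 hemidesmosome and tetraspanin genes. Over all tested genes, 4.79% rose. The 6 include COL17A1, which was tested through its shWDR43 libraries alone. Among the other genes of the 42, CLDN4, CLDN7 and F11R of the tight junction rose, and none of the desmosome, adherens junction and mesenchymal genes of the 42 passed, which does not show that they were unchanged. Of the 42 genes, 39 reached 1 FPKM in at least 2 libraries and were tested. Of these, 9 rose (LAMA3, LAMB3, ITGB4, COL17A1, PLEC, CD151, CLDN4, CLDN7 and F11R) and 0 fell, by limma on log2(FPKM + 1) at an adjusted p below 0.05, while 16 of the 39 had an unadjusted p below 0.05. Over all 13303 tested genes, 637 rose and 196 fell, that is 4.79% and 1.47% (6.26% in either direction), against 23.1% of the 39 that rose. With median-ratio scaling these numbers were 295 and 221 over all genes, and with upper-quartile scaling 327 and 287. COL17A1 passed the filter on low values through its shWDR43 libraries alone, so it had to differ, and without it 8 of 38 rose. The libraries of the groups did not overlap, with shWDR43 above, in 25 of the 39 genes, against 35.8% of all tested genes, and with shWDR43 below in 5, against 21.5%. The median log2 difference was 0.17 over the 39 genes and 0.05 over all tested genes. The number that rose was 5 with median-ratio scaling, where 2.22% of all tested genes rose. It was 0 with no filter on low values, where 0.0557% of all tested genes rose. When 1 library was left out, the number that rose moved, and so did that over all tested genes.

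**Figure D1:**
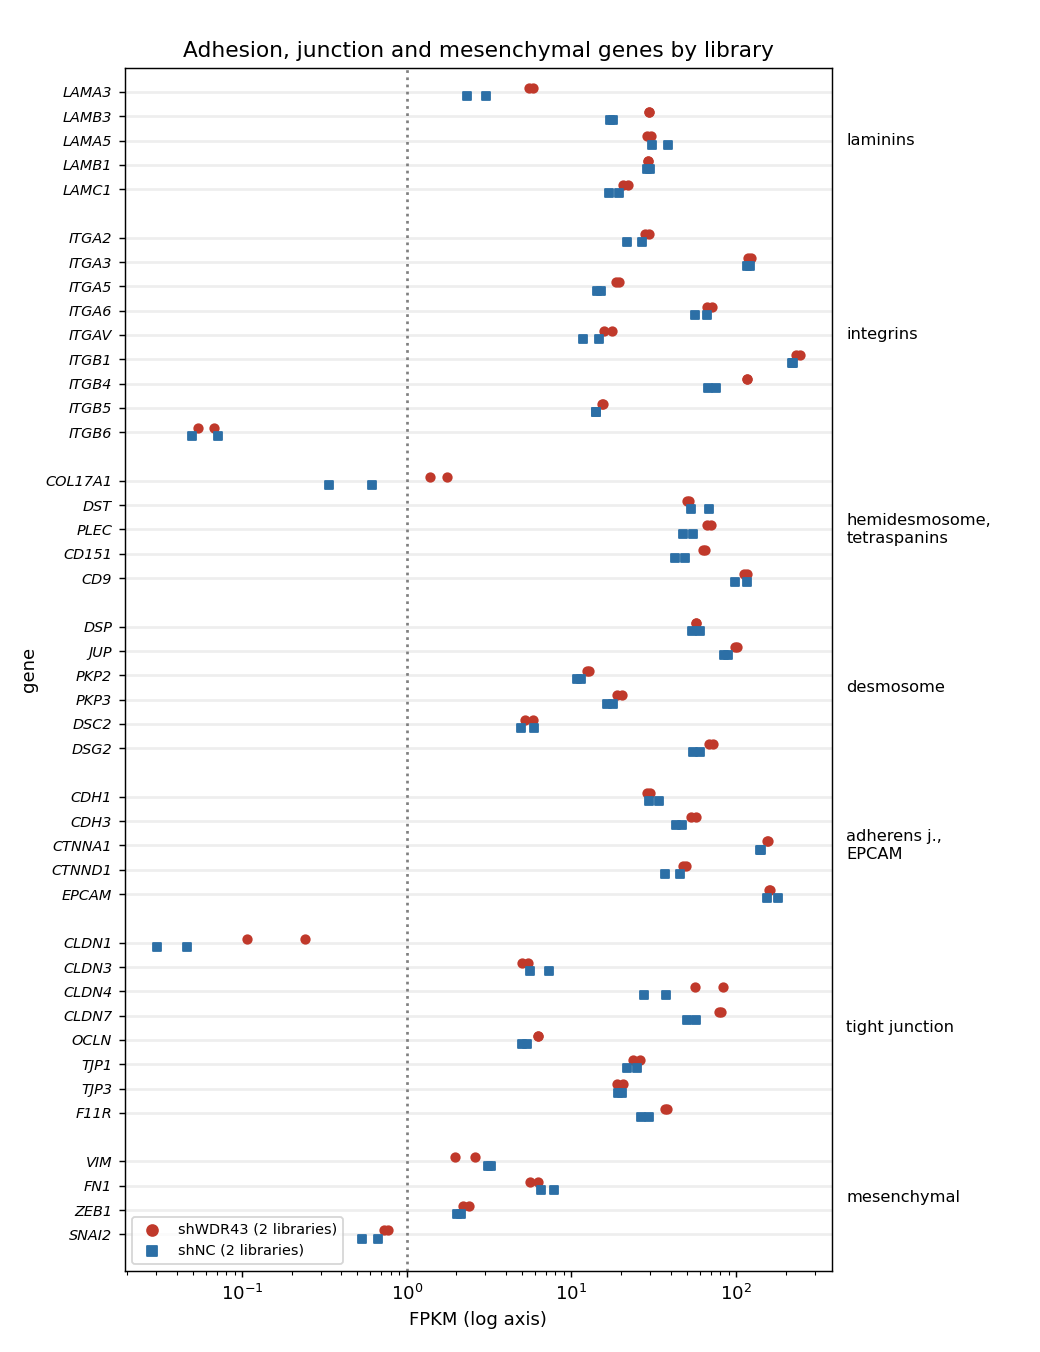
FPKM (log axis) of each of the 42 genes in each library, by subgroup, with shWDR43 libraries as circles above shNC libraries as squares and a dotted line at 1 FPKM. ITGB6, CLDN1 and SNAI2 lie left of the line in each library, and COL17A1 crosses it between the groups.

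Both laminin-332 chains among the 42 genes rose. LAMA3, the alpha chain gene (ENSG00000053747, chromosome 18, 23689443 to 23956222, plus strand, on GRCh38 as are all positions here, from GENCODE), was at 5.82 and 5.49 FPKM in shWDR43 and at 3.05 and 2.31 FPKM in shNC. Its mean was 5.65 ± 0.229 FPKM in shWDR43 and 2.68 ± 0.520 FPKM in shNC (SD, n = 2 each), a ratio of 2.11 and a log2 difference of 0.86 ± 0.13 (SE; limma, adjusted p = 0.0199). LAMB3, the beta chain gene (ENSG00000196878, chromosome 1, 209614870 to 209652466, minus strand), was at 29.6 and 29.7 FPKM in shWDR43 and at 17.1 and 17.95 FPKM in shNC, with a log2 difference of 0.72 ± 0.08 (limma, adjusted p = 0.00919). For both genes the libraries of the groups stood apart, and each rise passed the test whichever of the 4 libraries was left out. The FPKM of LAMA3 was 0.197 and 0.185 of that of LAMB3 in shWDR43, against 0.178 and 0.129 in shNC, so both shWDR43 ratios were the higher ones.

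The other laminin genes among the 42 did not pass. LAMA5, an alpha chain gene of other basement membrane laminins, was at 30.6 and 28.8 FPKM in shWDR43 and at 38.8 and 30.8 FPKM in shNC, a log2 difference of -0.21 (limma, adjusted p = 0.283). That difference was -0.38 and passed without shNC replicate 2 (limma, adjusted p = 0.0148). LAMB1, a beta chain gene, was at 28.98 and 29.09 FPKM in shWDR43 and at 29.9 and 28.7 FPKM in shNC, so its groups overlapped. LAMC1, the gamma chain gene of most other laminins, had a log2 difference of 0.22 ± 0.10 (limma, adjusted p = 0.197) and passed without shNC replicate 1. LAMA5 shares 1.71% of its exonic bases with ADRM1 on the opposite strand, which was at 43.5 and 44.1 FPKM in shWDR43 and 31.9 and 34.0 FPKM in shNC, and as no source used here says whether reads were counted by strand, the level of LAMA5 is uncertain. Among 10 other tested basement membrane genes, 0 passed by limma and 2 had an unadjusted p below 0.05. BCAM, a laminin receptor gene, was at 33.5 and 34.0 FPKM in shWDR43 and 42.6 and 40.8 FPKM in shNC (log2 difference -0.30; limma, adjusted p = 0.0640). COL4A3, a type IV collagen gene, was at 3.32 and 4.48 FPKM in shWDR43 and 8.35 and 5.37 FPKM in shNC (log2 difference -0.67; limma, adjusted p = 0.0818).

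The starts of 5 of these genes are shown because LAMA3, LAMB3, COL17A1 and CLDN4 rose and CLDN3, which lies beside CLDN4, did not pass. CLDN7 also rose, and its start is not printed. Each run holds 250 bases before a transcript start and 50 after it, 5′ to 3′ on the gene's strand, from RefSeq on GRCh38.p14. Capitals mark TGAGTCA or its reverse complement TGACTCA, the site of AP-1, a dimer of FOS and JUN proteins.
LAMA3 (chr18:23872770-23873069, plus strand): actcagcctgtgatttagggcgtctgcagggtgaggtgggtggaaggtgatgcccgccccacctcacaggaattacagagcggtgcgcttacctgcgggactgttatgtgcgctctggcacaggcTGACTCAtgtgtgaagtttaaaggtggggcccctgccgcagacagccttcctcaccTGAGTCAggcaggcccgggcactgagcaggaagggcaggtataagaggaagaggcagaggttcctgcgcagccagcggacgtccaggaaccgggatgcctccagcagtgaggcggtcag
LAMB3 (chr1:209651325-209651624, minus strand): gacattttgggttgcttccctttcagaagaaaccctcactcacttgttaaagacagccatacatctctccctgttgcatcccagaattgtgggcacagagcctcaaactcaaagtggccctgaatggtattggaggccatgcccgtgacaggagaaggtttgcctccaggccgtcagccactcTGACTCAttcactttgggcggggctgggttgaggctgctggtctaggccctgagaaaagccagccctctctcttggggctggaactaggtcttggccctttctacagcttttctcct
COL17A1 (chr10:104085831-104086130, minus strand): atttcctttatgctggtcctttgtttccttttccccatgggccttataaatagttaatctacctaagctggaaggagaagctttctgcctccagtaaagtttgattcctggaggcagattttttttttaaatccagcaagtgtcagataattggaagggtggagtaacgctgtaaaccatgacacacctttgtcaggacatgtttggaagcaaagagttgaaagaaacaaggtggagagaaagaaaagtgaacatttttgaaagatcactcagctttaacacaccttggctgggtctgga
CLDN4 (chr7:73830746-73831045, plus strand): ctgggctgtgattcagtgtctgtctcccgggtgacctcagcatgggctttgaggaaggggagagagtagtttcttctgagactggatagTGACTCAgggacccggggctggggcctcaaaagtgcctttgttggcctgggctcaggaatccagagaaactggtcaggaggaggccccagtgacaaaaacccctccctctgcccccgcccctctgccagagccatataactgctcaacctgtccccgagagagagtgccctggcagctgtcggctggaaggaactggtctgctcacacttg
CLDN3 (chr7:73770221-73770520, minus strand): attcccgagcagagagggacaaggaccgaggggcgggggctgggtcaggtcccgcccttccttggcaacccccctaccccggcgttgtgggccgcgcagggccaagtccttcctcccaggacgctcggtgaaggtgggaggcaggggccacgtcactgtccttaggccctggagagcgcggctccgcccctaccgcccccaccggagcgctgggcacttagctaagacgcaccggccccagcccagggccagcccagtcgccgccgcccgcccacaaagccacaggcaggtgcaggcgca

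The LAMA3 window lies within the gene, at the start of its shorter transcripts, and held 2 matches, whose first bases are at -125 and -69 from the start. The second overlaps CACCTG, an E-box that ZEB and SNAI factors can bind. Of the 3 RefSeq windows of LAMB3, the one printed was picked because it holds the match, at -67 from that start. The CLDN4 window held 1 match, at -161 from its start, and the CLDN3 and COL17A1 windows held none. The CLDN7 window, which is not printed, held none either. Promoter windows were found for 30 of the 42 genes. A match was present in 3 of the 5 genes with a window that rose and in 2 of the other 25, DST and ITGA5, against 6.05% of all 27305 genes with a window. The CACCTG box, read on both strands, was in 3 of the 5 and 14 of the other 25, against 24.07% of all genes, the GC box GGGCGG in 4 and 23, against 48.3%, the TEAD site GGAATG in 0 and 4, against 16.73%, and TATAAA in 1 and 3, against 13.99%. These matches describe letters in short windows and say nothing of which factor was bound.

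Of 8 tested integrin genes, 1 rose, ITGB4, against 4.79% of all tested genes. ITGB4 encodes the beta subunit of the hemidesmosomal integrin (ENSG00000132470, chromosome 17, 75721328 to 75757818, plus strand). It was at 116.5 and 115.7 FPKM in shWDR43 and at 75.9 and 67.8 FPKM in shNC, with a log2 difference of 0.69 ± 0.09 (limma, adjusted p = 0.0149), and the rise passed without any single library. ITGA6, its alpha partner, was at 66.7 and 71.3 FPKM in shWDR43 and at 66.2 and 56.5 FPKM in shNC. It did not pass (log2 difference 0.17 ± 0.10; limma, adjusted p = 0.316), but it did without shNC replicate 1. The ratio of ITGB4 to ITGA6 was 1.75 and 1.62 in shWDR43, against 1.15 and 1.20 in shNC. This ratio did not overlap between the groups, but it holds the ITGB4 values given above and was singled out after they were seen.

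The other integrin genes had log2 differences between 0.02 and 0.34. ITGB1, the beta subunit gene shared by most matrix receptors, was the highest integrin gene, at 230 and 244 FPKM in shWDR43 and 221 and 219 FPKM in shNC. Its log2 difference was 0.11 (limma, adjusted p = 0.505). ITGA3, whose product pairs with that of ITGB1 to bind laminin, was at 124 and 118 FPKM in shWDR43 and 122 and 117 FPKM in shNC, a log2 difference of 0.02 that turned negative under either scaling. ITGA5, the alpha subunit gene of the main fibronectin receptor, had the largest difference short of the threshold, 0.34 ± 0.09 (limma, adjusted p = 0.0585), at 18.6 and 19.4 FPKM in shWDR43 and 15.2 and 14.3 FPKM in shNC. It passed at a filter of 5 FPKM, without shNC replicate 1 and without shNC replicate 2. ITGAV and ITGA2 had differences of 0.32 and 0.23, and ITGB5 of 0.11, and none of them passed with all 4 libraries. ITGAV and ITGA2 passed without shNC replicate 1. ITGB6 was at 0.0495 to 0.0714 FPKM in the 4 libraries and was not tested. From the wider list, 0 of 4 tested integrin genes passed, the nearest being ITGB8 at a log2 difference of 0.26 (limma, adjusted p = 0.327) and ITGAE at -0.16 (limma, adjusted p = 0.397).

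Of the hemidesmosome and tetraspanin genes, 3 of 5 tested rose and 0 fell, against 4.79% and 1.47% of all tested genes. The median log2 difference of the 5 was 0.42. Without COL17A1, which was tested through its shWDR43 libraries alone, 2 of 4 rose, and the median was 0.25 at a filter of 5 FPKM, 0.26 without shWDR43 replicate 1 and 0.25 without shWDR43 replicate 2. COL17A1, the transmembrane collagen of the hemidesmosome (ENSG00000065618, chromosome 10, 104031286 to 104085957, minus strand), was at 1.76 and 1.39 FPKM in shWDR43 and at 0.339 and 0.617 FPKM in shNC. Its log2 difference was 0.80 ± 0.17 (limma, adjusted p = 0.0384) and became 1.57 with a pseudocount of 0.1, since it is a low gene. With median-ratio scaling it missed the threshold (limma, adjusted p = 0.0516), and without either shWDR43 library it was not tested. PLEC, the plectin gene, which links integrin to keratin (ENSG00000178209, chromosome 8, 143915147 to 143976734, minus strand), was at 66.6 and 70.7 FPKM in shWDR43 and at 54.8 and 47.6 FPKM in shNC, with a log2 difference of 0.42 ± 0.09 (limma, adjusted p = 0.0464). CD151, a tetraspanin that binds laminin-receptor integrins (ENSG00000177697, chromosome 11, 832843 to 839831, plus strand), was at 64.8 and 62.6 FPKM in shWDR43 and at 42.7 and 48.7 FPKM in shNC, with a log2 difference of 0.47 ± 0.09 (limma, adjusted p = 0.0331). The PLEC and CD151 libraries did not overlap between the groups. The PLEC call was lost without shWDR43 replicate 1 (0.46; limma, adjusted p = 0.119) and without shWDR43 replicate 2 (0.38; limma, adjusted p = 0.229). The CD151 call was lost likewise (0.45; limma, adjusted p = 0.126 without replicate 1, and 0.50; limma, adjusted p = 0.0680 without replicate 2). Both calls were lost with median-ratio scaling, and that of PLEC also with upper-quartile scaling, without robust settings and with the replicate block (limma, adjusted p = 0.0724).

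DST, which encodes the dystonin plakins and among them the hemidesmosomal one, did not pass. It was at 50.3 and 52.1 FPKM in shWDR43 and at 68.4 and 53.6 FPKM in shNC, a log2 difference of -0.24 (limma, adjusted p = 0.245) that passed without shNC replicate 2. CD9, a broadly expressed tetraspanin gene, averaged 114 ± 2.85 FPKM in shWDR43 and 107 ± 12.8 FPKM in shNC (SD, n = 2 each), with overlap. CD151 shares 6.53% of its exonic bases with POLR2L on the opposite strand, which was at 22.7 and 20.1 FPKM in shWDR43 and 14.3 and 17.7 FPKM in shNC, so the CD151 level is uncertain. Of 13 further tetraspanin genes tested, 3 rose and 0 fell, against 4.79% and 1.47% of all tested genes. CD82, known as a suppressor of metastasis, was at 6.92 and 6.57 FPKM in shWDR43 and 2.98 and 3.69 FPKM in shNC, a log2 difference of 0.84 (limma, adjusted p = 0.0167). TSPAN1 was at 4.36 and 4.58 FPKM in shWDR43 and 2.48 and 1.98 FPKM in shNC, and rose by 0.76 on the log2 scale (limma, adjusted p = 0.0227). TSPAN13 was at 16.4 and 15.5 FPKM in shWDR43 and 10.5 and 10.8 FPKM in shNC, and rose by 0.55 (limma, adjusted p = 0.0225).

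**Figure D2:**
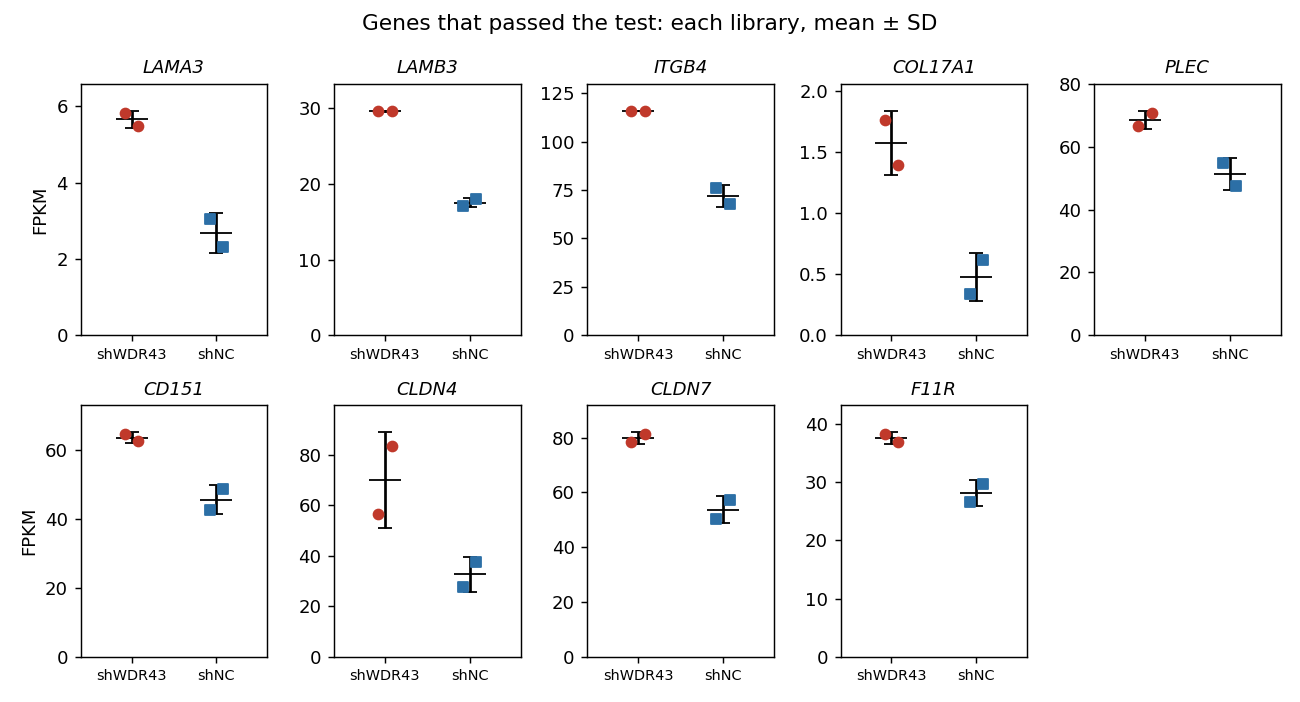
FPKM in each library for the 9 genes that rose, shWDR43 circles left of shNC squares, with the mean (bar) and SD (n = 2 per group); axes start at 0. In each panel both shWDR43 libraries lie above both shNC libraries, and those of CLDN4 are spread widely, at 56.5 and 83.3 FPKM.

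Among tight junction genes, 3 of 7 tested rose and 0 fell, against 4.79% and 1.47% of all tested genes. The median log2 difference of the 7 was 0.23. CLDN4, a claudin gene of tight epithelia (ENSG00000189143, chromosome 7, 73799542 to 73832693, plus strand), had the largest log2 difference of the 39 genes with a pseudocount of 1. With a pseudocount of 0.1 it was 1.09, below the 1.57 of COL17A1. CLDN4 was at 56.5 and 83.3 FPKM in shWDR43 and at 27.7 and 37.6 FPKM in shNC, a log2 difference of 1.06 ± 0.19 (limma, adjusted p = 0.0306). The call was lost without shNC replicate 1 (0.85; limma, adjusted p = 0.249) or shNC replicate 2 (1.28; limma, adjusted p = 0.133). CLDN3 (ENSG00000165215, 73768997 to 73770270, minus strand), which lies beside CLDN4 on chromosome 7 and encodes a related claudin, was at 5.02 and 5.44 FPKM in shWDR43 and at 5.63 and 7.36 FPKM in shNC. Its log2 difference of -0.26 did not pass (limma, adjusted p = 0.257), but it did without shNC replicate 1. CLDN4 was 11.3 and 15.3 times as high as CLDN3 in shWDR43, against 4.92 and 5.11 times in shNC.

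CLDN7, whose product binds EPCAM (ENSG00000181885, chromosome 17, 7259903 to 7263983, minus strand), was at 78.4 and 81.3 FPKM in shWDR43 and at 50.2 and 57.1 FPKM in shNC. It rose by 0.57 ± 0.09 on the log2 scale (limma, adjusted p = 0.0234) and passed without any single library. F11R, the gene of the junctional adhesion molecule JAM-A (ENSG00000158769, chromosome 1, 160995211 to 161021348, minus strand), was at 38.2 and 36.8 FPKM in shWDR43 and 26.5 and 29.6 FPKM in shNC, with a log2 difference of 0.41 ± 0.09 (limma, adjusted p = 0.0391). The F11R call was lost without shWDR43 replicate 1 (limma, adjusted p = 0.214), without shWDR43 replicate 2 (limma, adjusted p = 0.117) and with the replicate block (limma, adjusted p = 0.0656), as well as under either scaling. CLDN7 shares 1.52% of its exonic bases with ELP5 on the opposite strand, and F11R shares 36.58% with AL591806.3, another protein-coding gene on the same strand at a mean of 0.661 FPKM, so both levels are uncertain.

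TJP1, the ZO-1 gene, was at 23.6 and 26.0 FPKM in shWDR43 and 25.1 and 21.7 FPKM in shNC, and TJP3 at 20.7 and 19.0 FPKM in shWDR43 and 19.1 and 20.3 FPKM in shNC, both with overlap. OCLN, which encodes occludin, had a log2 difference of 0.23 (limma, adjusted p = 0.180). CLDN1 was at 0.107 and 0.240 FPKM in shWDR43 and 0.0461 and 0.0304 FPKM in shNC and was not tested. In the wider list of tight junction and polarity genes 1 of 15 tested rose and 0 fell, near the 4.79% and 1.47% of all tested genes. The gene that rose was CLDN12, at 19.5 and 19.1 FPKM in shWDR43 and 14.3 and 14.4 FPKM in shNC (log2 difference 0.40; limma, adjusted p = 0.0360).

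No desmosome gene among the 6 tested passed at an adjusted p below 0.05 by limma, and 2 had an unadjusted p below 0.05. JUP, the plakoglobin gene shared with adherens junctions, was at 102 and 98.6 FPKM in shWDR43 and 85.0 and 89.7 FPKM in shNC, a log2 difference of 0.20 (limma, adjusted p = 0.180). DSG2, the desmoglein gene of simple epithelia, was at 68.2 and 72.1 FPKM in shWDR43 and 60.2 and 54.8 FPKM in shNC, a difference of 0.28 (limma, adjusted p = 0.0907). JUP passed without shNC replicate 2 and DSG2 without shNC replicate 1. DSP, the desmoplakin gene, was at 57.4 FPKM in each shWDR43 library, against 60.1 and 54.2 FPKM in shNC. All 6 differences were positive, from 0.01 to 0.28, but those of DSP and DSC2 turned negative under either scaling. In the wider desmosome and plakin list 1 of 5 tested genes rose and 1 fell, against 4.79% and 1.47% of all tested genes. PERP, a desmosomal membrane protein gene known as a p53 target, was at 68.8 and 68.5 FPKM in shWDR43 and 45.8 and 51.7 FPKM in shNC (log2 difference 0.49; limma, adjusted p = 0.0301). PPL, the periplakin gene, was at 22.8 and 22.5 FPKM in shWDR43 and 30.9 and 29.2 FPKM in shNC (log2 difference -0.39; limma, adjusted p = 0.0360).

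The adherens junction genes and EPCAM gave 0 calls of 5 tested by limma, with 1 at an unadjusted p below 0.05. CDH1, the E-cadherin gene, was at 28.9 and 29.9 FPKM in shWDR43 and 34.1 and 29.8 FPKM in shNC, so its groups overlapped (log2 difference -0.11; limma, adjusted p = 0.473). CDH3, the P-cadherin gene, was at 57.2 and 53.3 FPKM in shWDR43 and 43.1 and 46.7 FPKM in shNC, a difference of 0.30 ± 0.09 (limma, adjusted p = 0.0799) that passed without shNC replicate 2. CTNNA1, the alpha-catenin gene, was at 155 and 156 FPKM in shWDR43 and 140 and 142 FPKM in shNC, with no overlap and a log2 difference of 0.14 (limma, adjusted p = 0.335). EPCAM, the epithelial cell adhesion molecule gene, was at 160 and 159 FPKM in shWDR43 and 155 and 181 FPKM in shNC, with overlap. CTNND1, the p120-catenin gene, had a log2 difference of 0.24 (limma, adjusted p = 0.201) and passed without shNC replicate 1. From the wider adherens junction list 2 of 8 tested genes rose and 0 fell, against 4.79% and 1.47% of all tested genes. CTNNB1, the beta-catenin gene, was at 82.5 and 81.9 FPKM in shWDR43 and 52.5 and 55.9 FPKM in shNC (log2 difference 0.59; limma, adjusted p = 0.0159). NECTIN4 was at 1.99 and 1.64 FPKM in shWDR43 and 0.477 and 0.556 FPKM in shNC, so that, like COL17A1, it was tested through its shWDR43 libraries alone (log2 difference 0.89; limma, adjusted p = 0.0259).

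**Figure D3:**
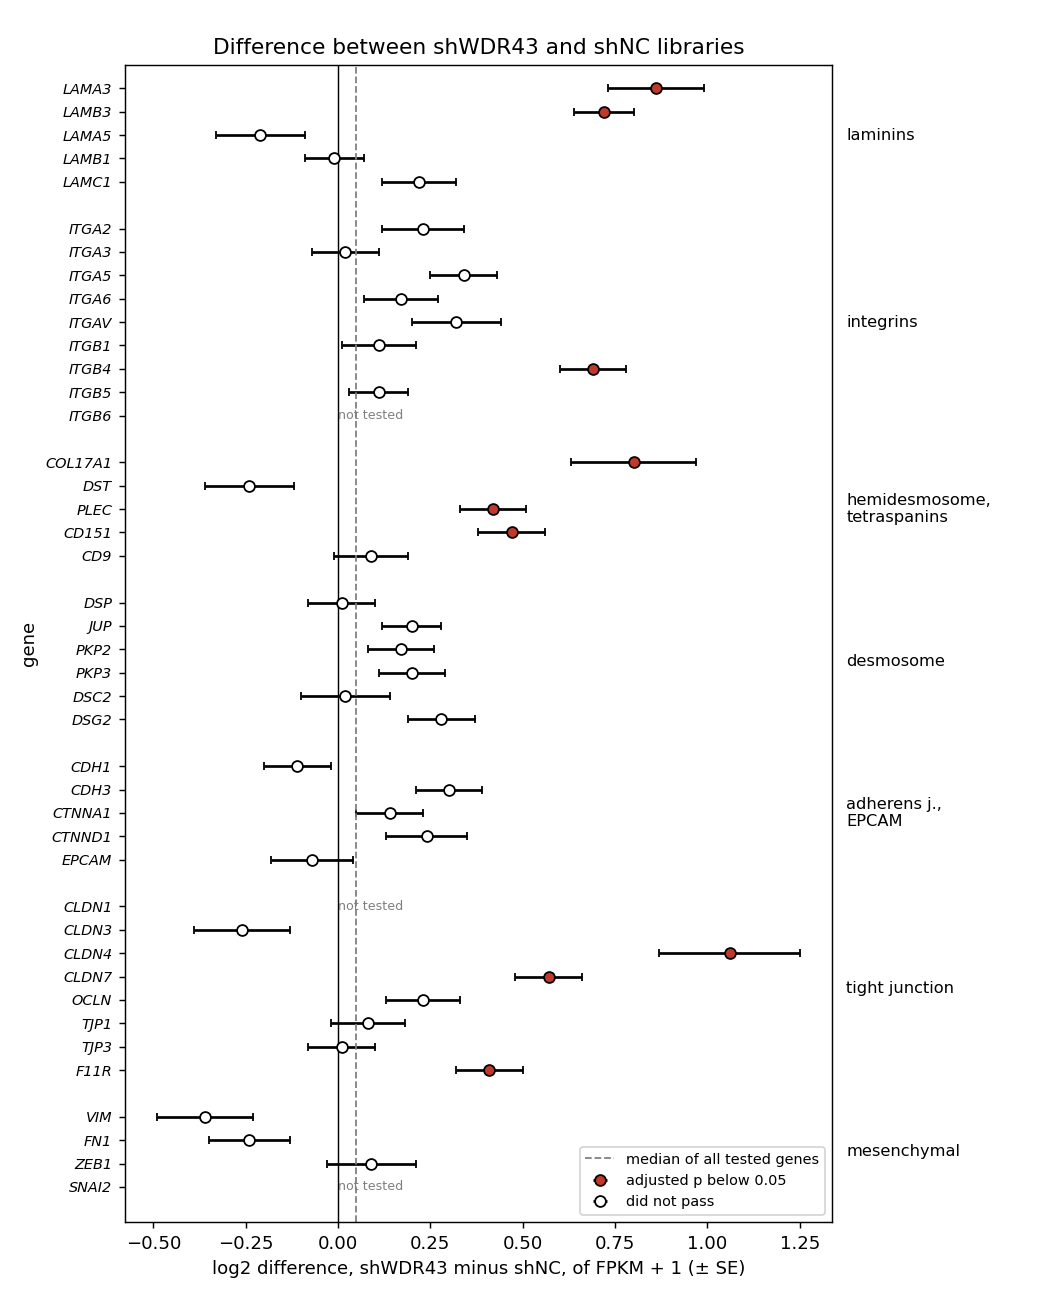
Log2 difference (shWDR43 minus shNC, of FPKM + 1) with its SE for each tested gene by subgroup, filled where the adjusted p was below 0.05, with a dashed line at the median of all tested genes, 0.05. The 9 filled points lie between 0.41 and 1.06, and the desmosome, adherens junction and mesenchymal subgroups hold open points alone.

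Mesenchymal genes were low in both groups, and 0 of 3 tested passed by limma, with 1 at an unadjusted p below 0.05. VIM, the vimentin gene (chromosome 10, 17228259 to 17237593, plus strand), was at 2.60 and 1.97 FPKM in shWDR43 and 3.11 and 3.26 FPKM in shNC, a log2 difference of -0.36 ± 0.13 (limma, adjusted p = 0.141). FN1, the fibronectin gene (chromosome 2, 215360440 to 215436172, minus strand), was at 5.63 and 6.25 FPKM in shWDR43 and 7.84 and 6.58 FPKM in shNC, a difference of -0.24 ± 0.11 (limma, adjusted p = 0.230). For VIM and FN1 both shWDR43 libraries lay below both shNC libraries. ZEB1, a repressor of epithelial genes, had a difference of 0.09, and SNAI2, another such repressor, stayed at 0.533 to 0.772 FPKM and was not tested. CDH1 was 11.2 and 15.2 times as high as VIM in shWDR43, against 10.9 and 9.15 times in shNC.

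By subgroup, the median log2 difference was 0.42 for hemidesmosome and tetraspanin genes, 0.23 for tight junction genes, 0.22 for laminins, 0.20 for integrins, 0.19 for desmosome genes, 0.14 for adherens junction genes with EPCAM and -0.24 for mesenchymal genes. The first of these was 0.25 at a filter of 5 FPKM, where COL17A1 was not tested. Over the 4 pairs of a shWDR43 and a shNC library these medians ran from 0.28 to 0.41 for hemidesmosome and tetraspanin genes, from 0.08 to 0.37 for laminins, from 0.07 to 0.37 for integrins and from -0.29 to -0.06 for mesenchymal genes. The laminin and integrin ranges overlap those of the desmosome genes (0.15 to 0.19) and tight junction genes (0.20 to 0.28). The laminin and integrin medians are thus not ordered against those subgroups beyond the spread of the libraries. The desmosome range lay below that of tight junction genes and above that of adherens junction genes with EPCAM (0.06 to 0.13). However, the 4 pairs reuse the same libraries. In the wider lists, the median was 0.33 for tetraspanin, 0.12 for adherens junction, 0.09 for integrin and 0.04 for tight junction and polarity genes. It was -0.00 for basement membrane, -0.16 for desmosome and plakin and 0.19 for mesenchymal and transition genes. The desmosome and mesenchymal medians thus differed in sign from their subgroups. Over all wider lists, 11 of 99 tested genes (11.1%) rose and 2 fell, against 4.79% and 1.47% of all tested genes. Differences between subgroups were not tested. With 2 libraries in each group, exact permutation for one gene cannot give a p below 0.333.

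**Figure D4:**
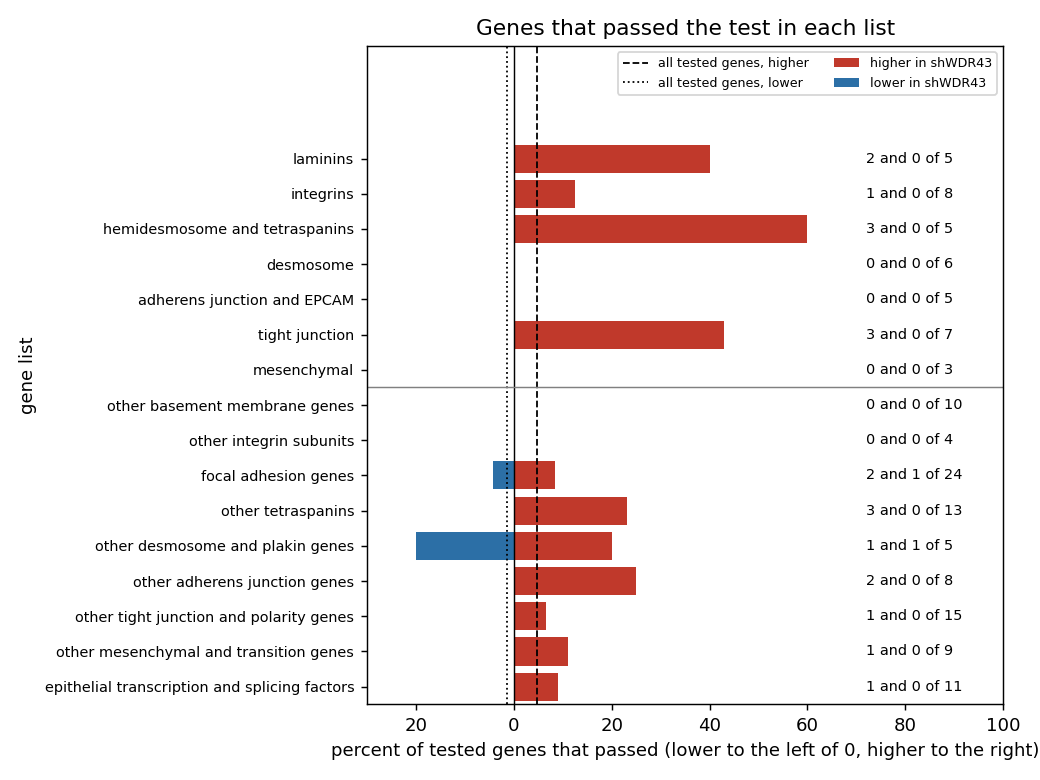
Percent of tested genes that passed in each subgroup (above the line) and wider list (below it), higher in shWDR43 to the right and lower to the left, with counts at the right and dashed and dotted lines at the shares of all tested genes, 4.79% and 1.47%. Hemidesmosome and tetraspanin genes have 3 of 5, and the desmosome, adherens junction and mesenchymal subgroups have 0.

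**Figure D5:**
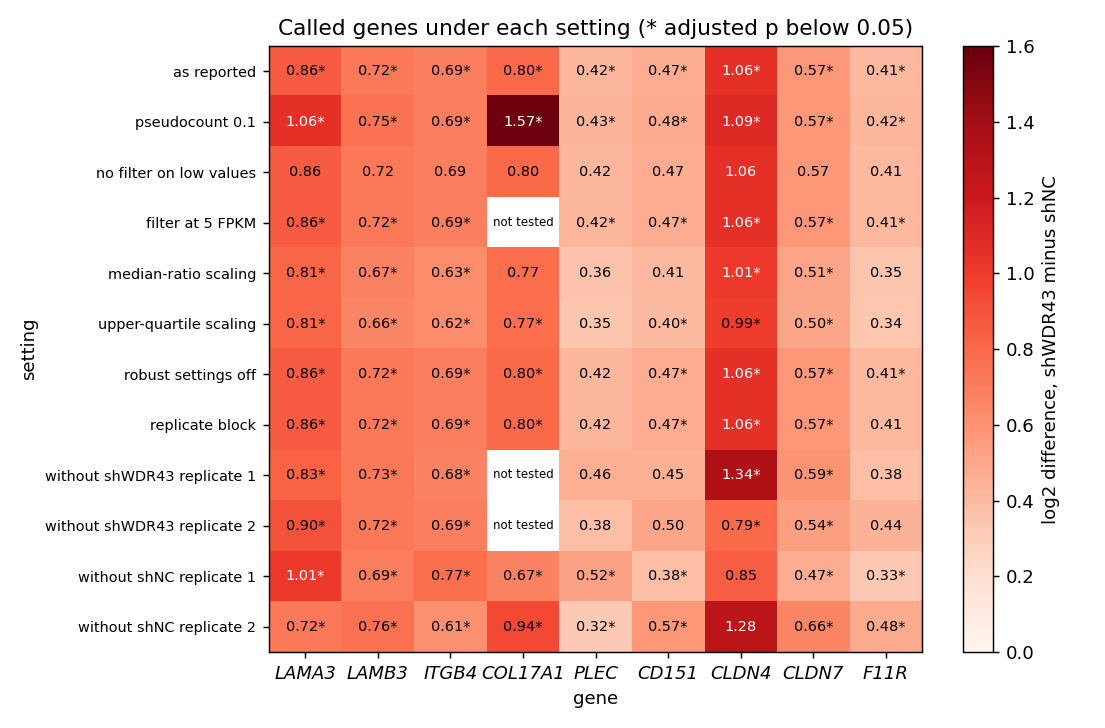
Log2 difference (color and number, shWDR43 minus shNC) of the 9 genes that rose (columns) under each setting (rows), with an asterisk where the adjusted p was below 0.05. LAMA3, LAMB3, ITGB4 and CLDN7 carry an asterisk in each setting except that with no filter on low values, and each difference shown is positive.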

How the data were processed

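Total RNA was isolated with Trizol and made into Illumina TruSeq RNA libraries, per the labels' protocols. The submitters' processing notes name the build GRCh38 and the tools RSEM, HISAT2, edgeR, Trimmomatic, FastQC and CASAVA 1.8. Which tool did what, and whether reads were counted by strand or on which annotation, is not given in the sources used. The authors' deposited values were read as FPKM, 1 file per library, a unit inferred from the values (not whole numbers, with sums that differ between libraries). TPM over part of the genes would look alike. Whole reads could not be recovered, since among low genes no 1% window of the ratio between a pair of libraries held over 1.01% of genes. One blank entry was left out, 29170 genes had a symbol, and coordinates and overlaps came from GENCODE release 29.

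Limma 3.58.1 in R 4.3.3 was run on log2(FPKM + 1) over genes that reached 1 FPKM in at least 2 libraries, with group as the only term and trended, robust empirical Bayes moderation. P-values were two-sided and Benjamini-Hochberg adjusted over 13303 genes, with a threshold of 0.05. Differences on this scale understate changes of low genes. No scaling was added. The fit was tested on simulated data.

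Values in every library are given for genes that passed, for the 2 highest genes and the largest difference of each subgroup, and, in wider lists, for up to 4 genes that passed or the 2 nearest. CDH1, DSP, DST, ITGA5, ITGA6, CLDN1, CLDN3, TJP1, TJP3 and the ratios were singled out after their values were seen. From the wider lists, SNAI1, CDH2, VCL, PTK2, ILK, TLN1 and ESRP1 were also named outside the rule above. Some genes of the wider lists are not reported here. The genes and lists were chosen with earlier results of these data known. Alternatives were a pseudocount of 0.1, no filter, a filter at 5 FPKM, 2 scalings, moderation without robust settings, each library left out, and a block for replicate number. With 1 library left in a group, that library is assumed to vary as the other group does. Python 3.11.15, pandas 2.3.3 and matplotlib 3.10.9 made tables and figures.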

Additional observations from a re-analysis of the deposited data

How the results depend on the processing

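LAMA3, LAMB3, ITGB4 and CLDN7 passed in 10 of 11 settings, all but that with no filter on low values, where 17 of 26938 genes passed in all, against 833 of 13303, and 0 of the 42 genes rose. The cause was not tested. The differences of the 9 genes that rose stayed positive in each setting run. Over all genes 516 changed with median-ratio scaling, where 5 of the 42 rose, and 377 to 2586 when 1 library was left out, where 5 to 15 rose and 0 to 2 fell. In fits without a shWDR43 library the variances were almost wholly set by the trend (median 13080 and 13076 degrees of freedom), so the spread of CLDN4 had little weight there. COL17A1 could not be tested without a shWDR43 library or at 5 FPKM.

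The deviations of the same-numbered libraries had a correlation of -0.147 over 13303 genes. With 2 libraries in each group, this value cannot show whether same-numbered libraries shared a culture or a day. With the replicate block 563 genes changed and 7 of the 42 rose. PLEC was then at adjusted p = 0.0724 and F11R at 0.0656. A crossed block, chosen after seeing the data, gave 1954 genes, with 12 of the 42 higher and 0 lower.

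The hemidesmosome and tetraspanin median was 0.25 at the 5 FPKM filter, 0.36 with median-ratio and 0.35 with upper-quartile scaling, and 0.25 to 0.38 without a library. The desmosome median was 0.13 and 0.12 with these scalings and 0.15 to 0.19 without a library, the adherens junction median 0.08 and 0.07, and 0.10 to 0.15, and the tight junction median 0.18 and 0.17, and 0.20 to 0.27, with 0.27 at a pseudocount of 0.1. The mesenchymal median was -0.07 with no filter and -0.33 to -0.13 without a library. ITGA3 turned to -0.04 and -0.05 with the scalings and was between -0.01 and 0.06 without a library (negative without shWDR43 replicate 1 or shNC replicate 2), LAMB1 between -0.04 and 0.02 and CD9 between -0.03 and 0.21 (reversed without shNC replicate 1), and EPCAM between -0.18 and 0.04 (reversed without shNC replicate 2).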

Other observations

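Focal adhesion genes, whose products tie integrins to actin, gave 2 of 24 tested genes higher in shWDR43 and 1 lower, shares near those of all tested genes (4.79% higher and 1.47% lower). The kindlin genes, which encode activators of integrins, differed in opposite directions. FERMT1, the epithelial kindlin gene, was at 7.10 and 7.58 FPKM in shWDR43 and 5.37 and 4.44 FPKM in shNC, and rose by 0.50 on the log2 scale (limma, adjusted p = 0.0470). FERMT2 was at 18.03 and 18.6 FPKM in shWDR43 and 25.1 and 26.7 FPKM in shNC, a log2 difference of -0.48 (limma, adjusted p = 0.0273). The ratio of FERMT1 to FERMT2 was 0.394 and 0.407 in shWDR43, against 0.214 and 0.166 in shNC. BCAR1, an adaptor gene of integrin signalling, was at 9.65 and 10.3 FPKM in shWDR43 and 7.61 and 6.71 FPKM in shNC, and rose by 0.43 (limma, adjusted p = 0.0496). The FERMT1 and BCAR1 calls lie near the threshold, and no call in a wider list was followed through the other settings. VCL, PTK2, ILK and TLN1, core genes of the structure, had log2 differences of -0.12, -0.05, -0.02 and 0.14, and none of them passed.

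Of 11 tested epithelial transcription and splicing factors, GRHL3, a grainyhead factor gene of epithelial barriers, rose, at 1.87 and 1.30 FPKM in shWDR43 and 0.598 and 0.474 FPKM in shNC (log2 difference 0.74; limma, adjusted p = 0.0458). It was tested through its shWDR43 libraries alone, so it had to differ. The share of all tested genes that rose, 4.79%, stands beside this list and the next. ESRP1, a splicing factor gene of epithelia, had a log2 difference of -0.11 (limma, adjusted p = 0.399) and did not pass. Of 9 further mesenchymal and transition genes tested, ACTA2, the smooth muscle actin gene, rose, at 11.8 and 9.79 FPKM in shWDR43 and 4.39 and 6.47 FPKM in shNC (log2 difference 0.89; limma, adjusted p = 0.0314). SNAI1, a repressor of CDH1, was at 6.44 and 6.34 FPKM in shWDR43 and 5.21 and 5.77 FPKM in shNC and did not pass, and CDH2, the N-cadherin gene, was at 0.0707 and 0.0178 FPKM in shWDR43 and listed at 0 in both shNC libraries, and was not tested.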
